A study of Mus musculus with 28 samples.

Results

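The genes described here are 10 listed by symbol because they mark arterial or venous identity in vessels: Efnb2, Dll4, Notch1, Notch4, Hey1, Hey2, Gja4 and Gja5 on the arterial side, and Ephb4 and Nr2f2 on the venous side. All 10 were found in the bulk table of 56980 genes and in the 32285 genes of each single-cell matrix. They were followed in a mouse arteriovenous fistula (AVF), in which the end of a jugular vein is joined to the side of a carotid artery so that the vein carries arterial flow. Male and female C57BL/6 mice all had a 5/6 nephrectomy, and AVF creation came 3 to 4 weeks later, also in the mice that gave the contralateral jugular veins used as controls. Bulk RNA sequencing covered 7 contralateral veins, 8 early outflow veins at about 3 days after AVF creation, 5 mid outflow veins at about 10 days and 5 late outflow veins at about 21 days, with 1 vessel per library. Of the contralateral veins, 5 came from female and 2 from male mice, against 3 female and 5 male early AVFs and 3 female and 2 male AVFs at each later time. Single-cell sequencing covered 1 contralateral, 1 early and 1 late library, each made from a pool of 10 vessels of male and female mice. By the study's methods, the early and late single-cell vessels were collected later after surgery than the bulk vessels of the same name, so the terms stand for different days in the 2 assays. No mid AVF was measured in single cells. Vessels are named below by the number in their label.

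Arterial and venous endothelial cells carry different surface proteins and transcription factors from early development on. On the arterial side, the ligand Delta-like 4 activates Notch receptors, whose cleaved form acts with the DNA-binding factor RBPJ on genes such as Hey1 and Hey2, and arterial endothelium carries ephrin-B2 and the connexins 37 and 40. On the venous side, the nuclear receptor COUP-TFII, encoded by Nr2f2, restrains Notch signaling and veins carry EphB4, the receptor of ephrin-B2. A vein that receives arterial flow is therefore a setting in which both programs can be read side by side.

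The regions before the start sites of 3 members are shown because these were the members whose bulk level passed the test at 1 or more times. Each is the RefSeq stretch of 250 bases upstream of the gene's start in GRCm38.p6, written 5′ to 3′ along the gene's own strand. Ephb4 lies on the plus strand of chromosome 5 (chr5:137349859-137350108), Nr2f2 on the minus strand of chromosome 7 (chr7:70366747-70366996) and Hey2 on the minus strand of chromosome 10 (chr10:30842784-30843033). Capitals mark a match to the RBPJ core letters TGGGAA, which on the other strand read TTCCCA.
Ephb4: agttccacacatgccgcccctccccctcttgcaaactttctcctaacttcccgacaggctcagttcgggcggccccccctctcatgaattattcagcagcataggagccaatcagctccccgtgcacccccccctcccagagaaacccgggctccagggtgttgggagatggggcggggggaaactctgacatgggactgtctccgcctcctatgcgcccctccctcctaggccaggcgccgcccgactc
Nr2f2: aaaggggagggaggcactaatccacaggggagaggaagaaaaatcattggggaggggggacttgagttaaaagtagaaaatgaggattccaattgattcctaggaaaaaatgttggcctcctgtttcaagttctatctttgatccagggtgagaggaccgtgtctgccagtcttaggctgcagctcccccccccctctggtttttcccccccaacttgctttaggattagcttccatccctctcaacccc
Hey2: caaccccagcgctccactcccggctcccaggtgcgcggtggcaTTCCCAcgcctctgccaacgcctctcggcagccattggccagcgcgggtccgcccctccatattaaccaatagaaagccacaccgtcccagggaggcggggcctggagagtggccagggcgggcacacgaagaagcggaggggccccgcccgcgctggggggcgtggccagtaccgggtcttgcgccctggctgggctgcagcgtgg
The Hey2 stretch held the single RBPJ core match, on the strand opposite to the gene, between 207 and 202 bases before the start. Neither the Ephb4 nor the Nr2f2 stretch held the RBPJ core or the HEY-type site CACGTG. Over all 32851 RefSeq windows of this length, 21.6% held the RBPJ core and 6.02% held CACGTG on either strand. Of the 10 members, 9 had an entry in this set, Hey1 being the other, and the remaining 6 held neither motif.
The GC content was 64.0% for Ephb4, 50.0% for Nr2f2 and 71.6% for Hey2. The Nr2f2 stretch lies wholly within exons of the antisense gene B130024G19Rik, and 18 bases of the Hey2 stretch lie in annotated exons. The letters are a description of these windows and do not show binding.

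By the GENCODE M21 annotation of GRCm38, 5 of the 10 members shared no exonic base with another gene. Efnb2 (ENSMUSG00000001300) spans chr8:8617434-8661242, Notch4 (ENSMUSG00000015468) chr17:34564268-34588503, Hey1 (ENSMUSG00000040289) chr3:8663359-8667256, Hey2 (ENSMUSG00000019789) chr10:30832359-30842801 and Gja4 (ENSMUSG00000050234) chr4:127311421-127314039. Nr2f2 (ENSMUSG00000030551, chr7:70351944-70366735) shared 643 exonic bases with an antisense gene, and Notch1 (ENSMUSG00000026923, chr2:26457903-26516663) shared up to 1068 with overlapping genes. Dll4 (ENSMUSG00000027314, chr2:119325784-119335962) shared 214, Gja5 (ENSMUSG00000057123, chr3:96904693-97077416) 165 and Ephb4 (ENSMUSG00000029710, chr5:137350109-137378669) 33. Whether counting used the strand is not given in the sources used here, so reads of such partners cannot be told apart.

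The bulk libraries held 20254173 to 67457501 counts each. The contralateral libraries stood apart from the AVF libraries in one respect: among the 12673 genes tested, 2.86% to 22.5% had a count of 0 in a contralateral library, against 0.0789% to 4.70% in an AVF library. Contralateral veins 28, 31, 34 and 632 each had over 10% of tested genes at 0, and for many of the results below the values without them are also given. Between 2 and 5 members were at 0 in 6 of the 7 contralateral libraries, and 1 member was at 0 in early AVF 6. Levels are given as CPM, the usual depth-scaled read count, here on scaled library sizes. A count of 0 allows up to 0.0814 to 0.187 CPM in these libraries, taking 3 counts as the limit, for counting error alone. The summed level of 12 general endothelial genes was 1547 to 3090 CPM in contralateral veins and 351 to 893 CPM in AVFs, and the 8 smooth muscle markers summed to 9493 to 20690 CPM and 1098 to 3656 CPM. None of the genes of either list was at 0 in every library of a group. Of other cell type lists, 5 of 7 monocyte and macrophage markers, 5 of 5 neutrophil markers and 5 of 6 skeletal muscle markers were called higher early, against 6.17% of all tested genes, and their part in the member values was not tested. The members are expressed by endothelial cells, and several also by smooth muscle cells, so in bulk a smaller share of these cells and less RNA per cell cannot be told apart. The labels do not say whether vessels were paired by animal, so p-values measure the spread between these vessels.

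Both venous genes were lower in the AVFs than in the contralateral veins. Ephb4, the ephrin-B2 receptor of venous endothelium, stood at 59.3 CPM in the lowest contralateral vein (35), 108 CPM at the median and 187 CPM in the highest (28). In early AVFs it ranged from 4.66 CPM in vessel 5 to 33.4 CPM in vessel 6, with a median of 19.9 CPM. All early AVFs were thus below all contralateral veins. The mid AVFs measured 32.7, 26.3, 48.3, 60.6 and 23.9 CPM, and the highest of them reached into the contralateral range. The late AVFs measured 56.8, 34.0, 48.8, 41.7 and 53.2 CPM, all below the contralateral veins and all above the early AVFs. The group means were 107 ± 40.1 (SD, n = 7) in contralateral veins, 19.8 ± 8.73 (n = 8) early, 38.4 ± 15.7 (n = 5) mid and 46.9 ± 9.14 (n = 5) late. Ephb4 fell by 2.43 on the log2 scale in early AVFs (SE 0.34, edgeR quasi-likelihood test with Benjamini-Hochberg adjusted p = 5.92e-06), a 5.40-fold lower level. In mid AVFs the log2 fold change was -1.48 (SE 0.38, edgeR adjusted p = 0.0107), which did not reach the threshold of an adjusted p under 0.01 with a log2 change of at least 1. In late AVFs it was -1.19 (SE 0.38, edgeR adjusted p = 0.0401), also short of the threshold. The early change was -2.07 (adjusted p = 0.0298) with female mice alone, which ended the call. The mid change passed the threshold with DESeq2 (adjusted p = 0.00128) and without contralateral vein 35 or 632, early AVF 5 or 10, mid AVF 14 or late AVF 16 or 23, at adjusted p = 0.0049 to 0.00982. Without the 4 contralateral libraries with many genes at 0, the changes were -2.23, -1.28 and -0.99 early, mid and late (edgeR adjusted p = 9.86e-05, 0.0301 and 0.0936).

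Nr2f2 encodes COUP-TFII, which is also found in lymphatic endothelium and in mesenchymal cells. In the edgeR fit it was the only member that passed the test at all 3 times. It ranged from 127 CPM in contralateral vein 31 to 581 CPM in vein 28, with a median of 292 CPM. The early AVFs spanned 34.5 to 83.2 CPM with a median of 48.9 CPM. At the mid time the vessels read 89.4, 64.9, 66.1, 52.1 and 59.4 CPM, and the late AVFs 66.1, 61.9, 63.0, 99.1 and 106 CPM. No AVF at any time reached the lowest contralateral vein, and the 3 AVF groups overlapped each other. The means were 330.3 ± 154 CPM (SD, n = 7), 51.6 ± 15.0 (n = 8), 66.4 ± 14.0 (n = 5) and 79.2 ± 21.5 (n = 5) in the order contralateral, early, mid and late. Nr2f2 fell by 2.68 on the log2 scale early (SE 0.27, edgeR adjusted p = 5.42e-08), which is a 6.41-fold lower level. It fell by 2.31 in mid AVFs (SE 0.32, edgeR adjusted p = 1.48e-05) and by 2.06 in late AVFs (SE 0.31, edgeR adjusted p = 7.94e-05). Without the 4 contralateral libraries with many genes at 0, a choice made after the data were seen, the log2 changes were -2.44, -2.07 and -1.82, all past the threshold. The summed endothelial and smooth muscle markers were lower in the same AVFs. Their part in the lower venous genes was not tested, apart from the endothelial-scaled fit given below.

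**Figure D1:**
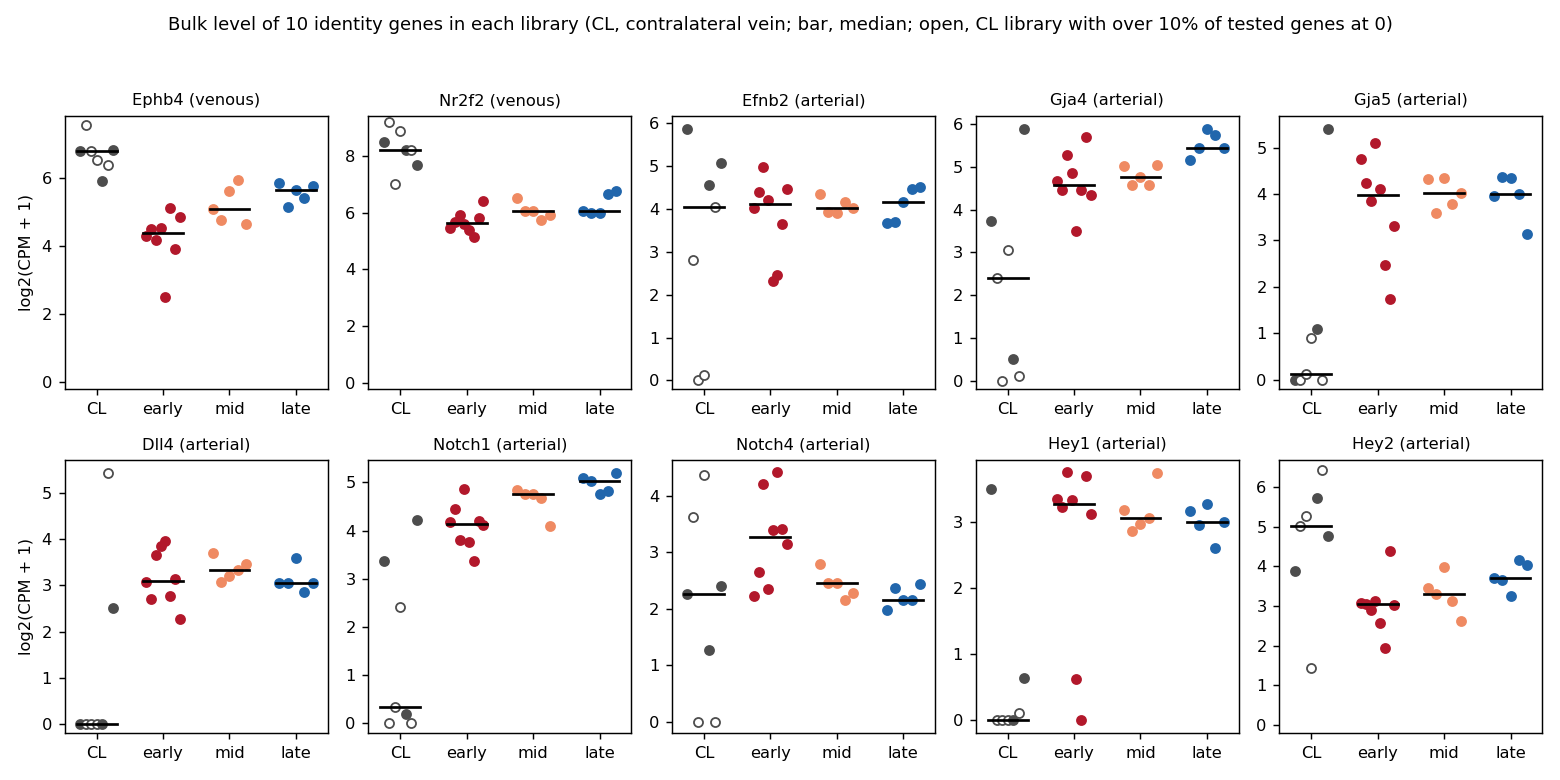
Level of each of the 10 genes in every bulk library, as log2(CPM + 1) on the vertical axis, by group (CL, contralateral veins), with points for vessels, bars for medians and open points for contralateral veins with over 10% of tested genes at 0. Ephb4 and Nr2f2 sit high in all 7 contralateral veins, while Dll4, Notch1, Hey1, Gja4 and Gja5 are at or near 0 in several of them and well above 0 in most AVFs.

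Efnb2 encodes ephrin-B2, the arterial ligand of EphB4. Its level in the AVFs lay within the range of the contralateral veins. That range was wide, from 0 counts in vein 31 and 0.0907 CPM in vein 34 through a median of 15.4 CPM to 57.1 CPM in vein 27. The early AVFs spanned 3.98 to 30.3 CPM with a median of 16.2 CPM. At the mid time the vessels read 19.1, 14.3, 13.9, 16.7 and 15.1 CPM, and the late AVFs 11.6, 11.9, 16.8, 20.9 and 21.8 CPM. The mid and late vessels were therefore much closer to each other than the contralateral veins were. The log2 fold changes were -0.30 early (SE 0.81, edgeR adjusted p = 0.837), -0.27 mid (SE 0.92, edgeR adjusted p = 0.902) and -0.20 late (SE 0.92, edgeR adjusted p = 0.926). Their 95% intervals reached from -1.97 to 1.36 early and from -2.09 to 1.70 late, so they include changes of that size in both directions. Without contralateral vein 27 the 3 signs turned, to 0.30, 0.33 and 0.40. Without the 4 libraries with many genes at 0, the early change was -1.26 (edgeR adjusted p = 0.0293, not past the threshold).

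The ratio of ligand to receptor within a library needs no library scaling, though at very low counts it depends on depth and on the count added. It was taken as log2 of the Efnb2 count plus 1 over the Ephb4 count plus 1, so a value below 0 means fewer Efnb2 than Ephb4 counts. In contralateral veins it was -11.28 in vein 31, -9.38 in vein 34, -4.95 in vein 28, -2.42 in vein 632, -1.81 in vein 633, -1.40 in vein 35 and -0.94 in vein 27. All 7 veins were below 0, but the spread among them was wide. In vein 31, with 0 Efnb2 counts, the added 1 and the Ephb4 count set the value, and in vein 34 it rested on 2 Efnb2 counts. The early AVFs ranged from -2.90 in vessel 6 to 0.83 in vessel 3, with a median of -0.29. The mid AVFs stood at -0.77, -0.88, -1.80, -1.86 and -0.66, and the late AVFs at -2.28, -1.51, -1.54, -0.99 and -1.29. The late AVFs lay within the contralateral range, and 3 of the 5 mid AVFs lay above the highest contralateral vein. The means were -4.60 ± 4.16 (SD, n = 7), -0.47 ± 1.06 (n = 8), -1.20 ± 0.58 (n = 5) and -1.52 ± 0.48 (n = 5). For the ratio, an adjusted p under 0.05 counted as a call. The early mean was 4.13 higher than the contralateral mean (SE 1.62, exact permutation test, two-sided, p = 0.00591, adjusted over the 3 comparisons p = 0.0177). The mid difference was 3.40 (SE 1.59, exact permutation p = 0.048, adjusted p = 0.072) and the late difference 3.07 (SE 1.59, exact permutation p = 0.121, adjusted p = 0.121). Without contralateral veins 28, 31, 34 and 632 the early difference was 0.92 (exact permutation, adjusted p = 0.655) and the late one -0.14, so the early call rested on those veins. With female mice alone it was 4.39 (exact permutation, adjusted p = 0.357), and as a difference in medians 2.13 (exact permutation, adjusted p = 0.0956). Leaving out vein 31 alone brought the late difference to 1.96.

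**Figure D2:**
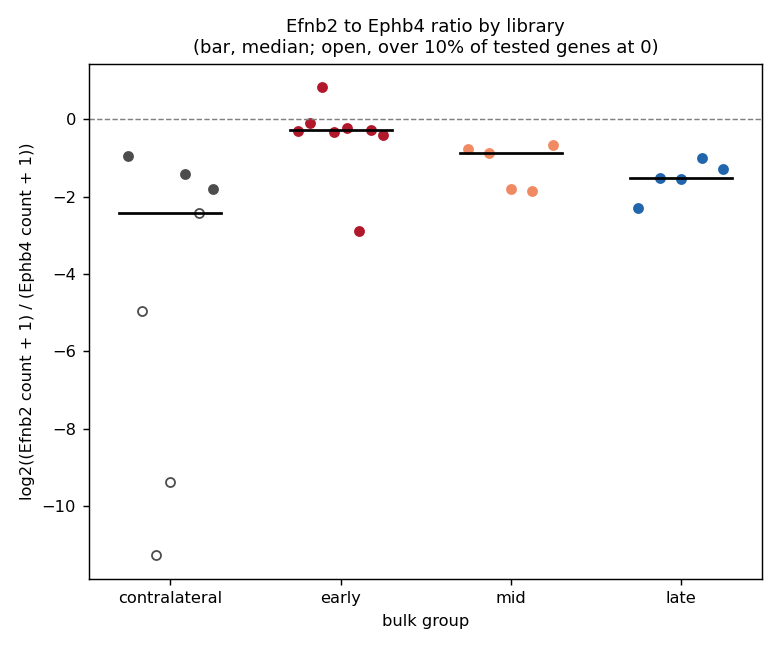
Log2 ratio of Efnb2 to Ephb4 counts on the vertical axis for each bulk library by group, with bars for group medians, open points for contralateral veins with over 10% of tested genes at 0 and a dashed line at a ratio of 0. The most negative values, -11.28 and -9.38, belong to contralateral veins 31 and 34, and the early AVFs lie highest, around a median of -0.29.

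The Notch ligand and receptors were low or undetected in most contralateral veins, and none passed the test at any time. Dll4, the arterial Notch ligand, had 0 counts in contralateral veins 27, 28, 31, 34 and 35, against 4.73 CPM in vein 633 and 42.7 CPM in vein 632. It was detected in every AVF, at 3.82 to 14.6 CPM early with a median of 7.60 CPM. The mid AVFs measured 11.9, 7.43, 8.16, 9.05 and 9.97 CPM and the late AVFs 7.25, 7.30, 11.1, 6.21 and 7.36 CPM. Every AVF thus exceeded the 5 veins at 0, while vein 632 exceeded every AVF. Against contralateral veins the changes on the log2 scale were 0.37 early (SE 1.21, edgeR adjusted p = 0.867), 0.46 mid (SE 1.36, edgeR adjusted p = 0.885) and 0.21 late (SE 1.36, edgeR adjusted p = 0.949). The veins at 0 came from the 5 female mice and the veins with counts from the 2 male mice. With female mice alone, Dll4 was called higher at each time (edgeR adjusted p = 0.0015 early, 0.00207 mid and 0.00242 late). Without vein 632 the 3 log2 changes were 3.46, 3.54 and 3.30, none of them past the threshold, and without vein 35 the late change was -0.09. Without the 4 contralateral libraries with many genes at 0, they were 2.49, 2.57 and 2.33 (edgeR adjusted p = 0.0763, 0.0999 and 0.135), also not past it.

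Notch1, a receptor of endothelial cells and of several leukocytes, was at 0 in contralateral veins 28 and 632. Its contralateral median was 0.263 CPM and its highest value 17.7 CPM in vein 633. In early AVFs it spanned 9.37 to 28.1 CPM with a median of 16.7 CPM, a range that vein 633 overlapped and the other veins, at 9.33 CPM or less, did not. At the mid time the vessels read 27.8, 26.0, 26.0, 24.5 and 16.2 CPM, of which the last, vessel 15, was below vein 633. The late AVFs measured 33.0, 31.9, 26.1, 27.1 and 35.9 CPM and all lay above all contralateral veins. The log2 fold changes were 1.89 (SE 0.90, edgeR adjusted p = 0.137), 2.41 (SE 0.98, edgeR adjusted p = 0.112) and 2.76 (SE 0.99, edgeR adjusted p = 0.0699) at early, mid and late times. None passed the threshold.

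Notch4, a receptor largely confined to endothelium, showed a higher level early than later in the AVFs, though not past the test. It was at 0 in contralateral veins 31 and 632, at 3.80 CPM at the contralateral median and at 19.7 CPM in vein 34. The early AVFs spanned 3.68 to 20.4 CPM with a median of 8.74 CPM. At the mid time the vessels read 5.96, 4.49, 4.51, 3.48 and 3.84 CPM and the late AVFs 2.92, 4.19, 3.46, 3.45 and 4.44 CPM, all of them below the early median. Against contralateral veins the changes on the log2 scale were 0.76 (SE 0.88, edgeR adjusted p = 0.595), -0.38 (SE 1.00, edgeR adjusted p = 0.867) and -0.65 (SE 1.01, edgeR adjusted p = 0.752). Without vein 34 the mid and late changes were 0.39 and 0.12. Late against early, the log2 change was -1.40 (SE 1.02, edgeR adjusted p = 0.649).

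The Hey genes, transcriptional repressors downstream of Notch, differed in their bulk values. Hey1 had 0 counts in contralateral veins 28, 31, 34 and 35, 0.0783 CPM in vein 632, 0.552 CPM in vein 633 and 10.4 CPM in vein 27. Early AVFs ranged from 0 in vessel 6 to 12.5 CPM, with a median of 8.72 CPM. The mid AVFs measured 8.12, 6.28, 6.83, 7.33 and 12.4 CPM, and the late AVFs 8.01, 6.73, 8.65, 5.12 and 7.03 CPM. Apart from early AVFs 5 and 6, each AVF exceeded 6 of the 7 contralateral veins. The log2 fold changes were 2.23 (SE 1.28, edgeR adjusted p = 0.225), 2.38 (SE 1.37, edgeR adjusted p = 0.288) and 2.17 (SE 1.37, edgeR adjusted p = 0.347) early, mid and late. Without vein 27, which had 2.86% of tested genes at 0, the log2 changes were 6.04, 6.19 and 5.98 (edgeR adjusted p = 0.00131, 0.00235 and 0.00333), all past the threshold. With the contralateral libraries with many genes at 0 left out instead, they were 1.04, 1.18 and 0.98 (edgeR adjusted p = 0.536, 0.537 and 0.615), none past it. The size of the Hey1 change and its calls thus depended on which contralateral veins were kept.

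Hey2 was lower in early AVFs. It ranged from 1.72 CPM in contralateral vein 34 to 85.7 CPM in vein 632, with a median of 31.3 CPM. The early AVFs spanned 2.85 to 19.9 CPM with a median of 7.24 CPM. At the mid time the vessels read 10.0, 8.88, 14.9, 7.70 and 5.18 CPM and the late AVFs 12.1, 11.6, 8.49, 16.8 and 15.4 CPM. Vein 34 was below every AVF, and the other veins were mostly above them. Hey2 fell by 2.15 on the log2 scale early (SE 0.54, edgeR adjusted p = 0.00461), a 4.44-fold lower level that passed the threshold. The mid change was -1.93 (SE 0.64, edgeR adjusted p = 0.0472) and the late change -1.46 (SE 0.63, edgeR adjusted p = 0.138), neither of them past it. The early call was near the threshold and was lost without contralateral vein 632 (log2 change -1.76, edgeR adjusted p = 0.0152). It was also lost without early AVF 1, 2, 3, 5 or 6 (-2.09 to -1.96, edgeR adjusted p = 0.0108 to 0.0134), with the 2 groups alone (-2.13, adjusted p = 0.0466) and with female mice alone (-1.41, adjusted p = 0.522). Without vein 34 the mid change passed (-2.13, adjusted p = 0.00751). Hey2 is also expressed by smooth muscle cells, whose 8 markers included 5 called lower at each time. That share was not tested in bulk, and the single-cell levels are given below.

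The connexins Gja4 and Gja5 form gap junctions in arterial endothelium. Gja4, which encodes connexin 37, ranged from 0 in contralateral vein 31 through a median of 4.25 CPM to 58.2 CPM in vein 633. The early AVFs spanned 10.2 to 51.0 CPM with a median of 22.8 CPM. At the mid time the vessels read 31.3, 23.0, 26.2, 22.8 and 31.9 CPM and the late AVFs 34.8, 42.6, 58.4, 52.6 and 42.7 CPM. All mid and late AVFs exceeded 6 of the 7 contralateral veins, and 1 late AVF, vessel 19, also exceeded vein 633. Against contralateral veins the changes on the log2 scale were 1.17 (SE 0.85, edgeR adjusted p = 0.359), 1.20 (SE 0.94, edgeR adjusted p = 0.464) and 1.97 (SE 0.95, edgeR adjusted p = 0.194). The late change passed the threshold with DESeq2 (log2 change 2.71, adjusted p = 0.00814) and, in edgeR, without vein 633 (3.51, adjusted p = 0.00975). Without the 4 contralateral libraries with many genes at 0, the changes were 0.18, 0.21 and 0.98 (edgeR adjusted p = 0.858, 0.86 and 0.361), none past it.

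Gja5, which encodes connexin 40, was at 0 in contralateral veins 27, 28 and 632, at 0.0876 to 1.12 CPM in veins 31, 34 and 35, and at 41.4 CPM in vein 633. The early AVFs spanned 2.34 to 33.1 CPM with a median of 14.8 CPM. The mid AVFs measured 19.1, 11.0, 19.2, 12.8 and 15.2 CPM and the late AVFs 14.6, 19.5, 19.2, 14.9 and 7.79 CPM. Every AVF was above 6 of the 7 contralateral veins and below vein 633. The log2 fold changes were 1.30 (SE 1.14, edgeR adjusted p = 0.457), 1.31 (SE 1.24, edgeR adjusted p = 0.564) and 1.29 (SE 1.24, edgeR adjusted p = 0.573). Without vein 633, which had 2.97% of tested genes at 0, they were 5.44, 5.45 and 5.43 (edgeR adjusted p = 0.000418, 0.00091 and 0.00108), all past the threshold. With the contralateral libraries with many genes at 0 left out instead, they were 0.13, 0.14 and 0.12 (edgeR adjusted p = 0.935, 0.94 and 0.948), none past it. The size of the Gja5 change and its calls thus depended on which contralateral veins were kept. Vein 633 also held the highest contralateral levels of Notch1 and Gja4, and it was the contralateral library in which no member was at 0.

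Counted over the 10 members, 3 passed the test early, all lower (Ephb4, Nr2f2 and Hey2), where 12.6% of all tested genes were called in either direction. In mid AVFs 1 member was called (Nr2f2, lower) against 6.05% of all genes, and in late AVFs 1 (Nr2f2, lower) against 5.33%. The 3 comparisons share the 7 contralateral veins. At no time was an arterial member called higher by edgeR, 0 of 8, while 1 early, 1 mid (Notch1 both times) and 2 late (Notch1 and Gja4) were higher at an unadjusted p under 0.05. DESeq2 called 1 of them higher, Gja4 in late AVFs. The ranges of AVFs and contralateral veins did not overlap for 2 members early (Ephb4 and Nr2f2), 1 mid (Nr2f2) and 3 late (Ephb4, Nr2f2 and, in the other direction, Notch1), against 6.82%, 12% and 10.5% of all tested genes. The median log2 fold change of the 10 members was 0.56 early, 0.09 mid and 0.01 late, beside -0.01, -0.10 and -0.09 over all tested genes. Without the 4 contralateral libraries with many genes at 0, the same 3 members were called early, and Nr2f2 alone was called mid and late. In that fit 17.9%, 9.97% and 8.55% of all genes were called.

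Between the AVF times no member was called by edgeR or DESeq2. Late against early, 0 of 10 members and 3.01% of all genes were called, with 2 members at an unadjusted p under 0.05. One of these was Ephb4, whose late level was 2.36-fold the early one (log2 change 1.24, SE 0.35, edgeR adjusted p = 0.0286) without overlap of the vessels, and the other was Nr2f2 (0.62, SE 0.28, edgeR adjusted p = 0.256). Mid against early, 0 members and 0.00789% of all genes were called, with 1 member, Ephb4, at an unadjusted p under 0.05 (0.95, SE 0.35, edgeR adjusted p = 0.156). Late against mid, 0 members and 0% of all genes were called, and no member was at an unadjusted p under 0.05.

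A second scaling set each library's size by the geometric mean of 12 general endothelial genes, so that a fold change is read against endothelial RNA of the same library. The median over all tested genes then moved to 1.03 early, 0.76 mid and 0.72 late on the log2 scale, and member values are to be read against that shift. Relative to endothelial genes, Ephb4 was lower early (-1.46, SE 0.41, edgeR adjusted p = 0.00681) and not past the threshold mid (-0.65, adjusted p = 0.338) or late (-0.41, adjusted p = 0.581). Nr2f2 was lower early (-1.48, SE 0.29, edgeR adjusted p = 0.000302) and mid (-1.32, SE 0.34, edgeR adjusted p = 0.0078), with a late change of -1.08 (SE 0.34, edgeR adjusted p = 0.0274). Both venous genes thus lay below contralateral veins on this scale where they passed, by a smaller amount than with the general scaling. Hey2 did not pass at any time on this scale (-1.02 early, edgeR adjusted p = 0.203). No member was called higher by edgeR, 0 of 10 at each time, against 21.5%, 8.06% and 6.97% of all genes called higher early, mid and late. DESeq2 was not run on this scale, and 5, 3 and 3 members were higher at an unadjusted p under 0.05. Over all genes the early calls were 2723 higher and 205 lower on this scale, against 782 higher and 817 lower with the general scaling.

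The arterial members with the largest positive values on the endothelial scale were Notch1, Hey1 and Gja4. Notch1 stood at 3.12 early (SE 0.94, edgeR adjusted p = 0.0106), 3.48 mid (SE 1.00, edgeR adjusted p = 0.0159) and 3.79 late (SE 1.01, edgeR adjusted p = 0.0111). It passed the threshold at all 3 times without vein 633. Hey1 stood at 3.56 early (SE 1.34, edgeR adjusted p = 0.0379) and Gja4 at 3.02 late (SE 0.97, edgeR adjusted p = 0.0325). Efnb2 was at 0.94, 0.84 and 0.89, close to the shift of all genes. Without the 4 contralateral libraries with many genes at 0, 50% of all genes were called early on this scale, and the members called were Nr2f2 lower (-1.02, edgeR adjusted p = 0.0079), Dll4 higher (3.63, edgeR adjusted p = 0.00961) and Notch4 higher (2.92, edgeR adjusted p = 0.000683). In that fit Ephb4 was at -0.90 early (edgeR adjusted p = 0.0719) and 0 members passed mid, where 34.2% of all genes were called, 4 members being at an unadjusted p under 0.05. Late, 1 member passed, Notch1 (2.81, edgeR adjusted p = 0.00717), against 31% of all genes.

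**Figure D3:**
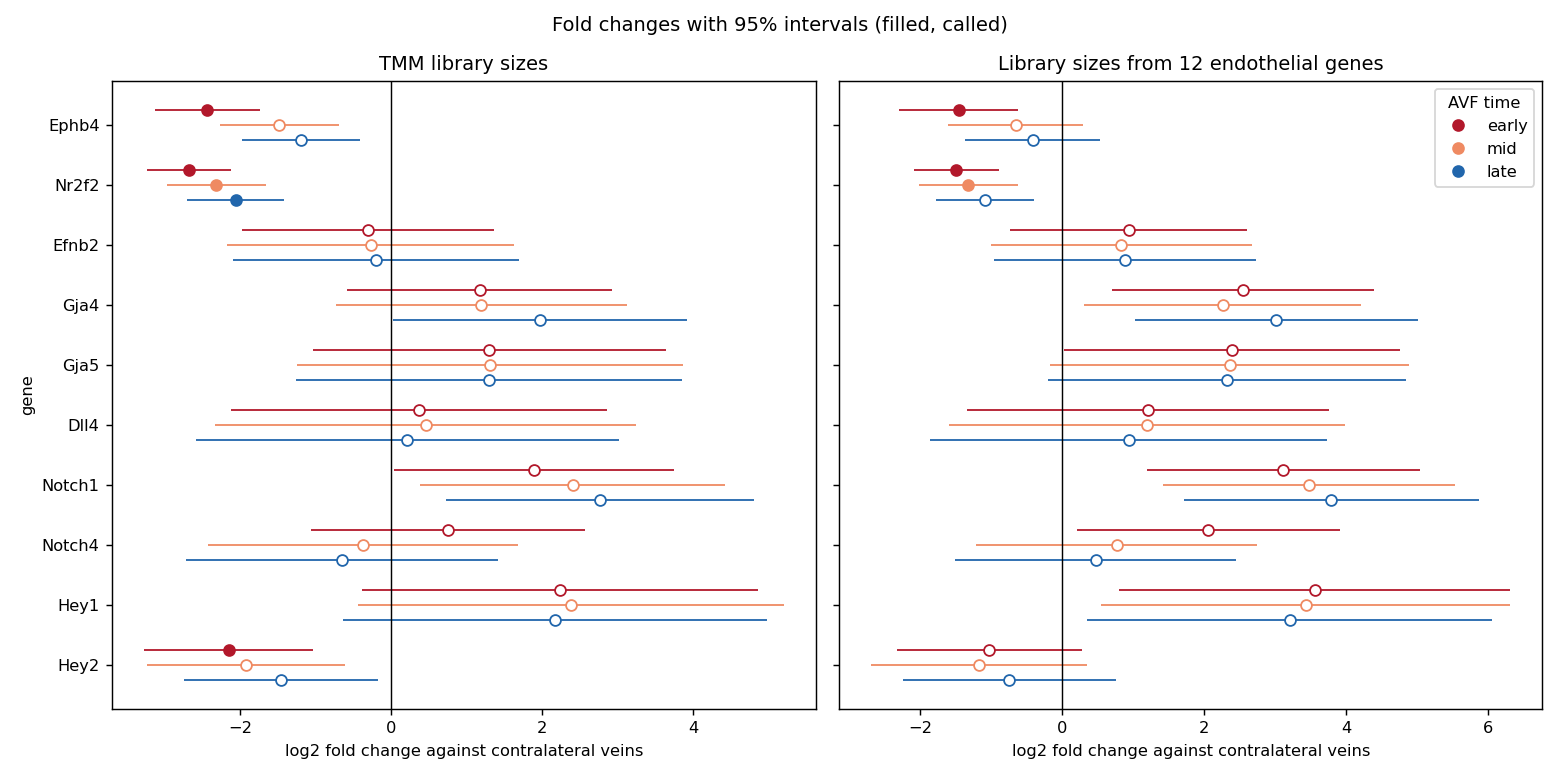
Log2 fold change of each member against contralateral veins on the horizontal axis, with 95% intervals, at 3 AVF times, under general (TMM) scaling on the left and endothelial scaling on the right, with filled points for called values. Ephb4, Nr2f2 and Hey2 lie left of 0 on both panels, while Notch1 lies at 1.89 to 2.76 on the left panel and 3.12 to 3.79 on the right.

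Per kilobase of exon, the venous genes led the members in contralateral veins and a connexin led in AVFs. The contralateral medians were 33.8 CPM per kb for Nr2f2, 23.4 for Ephb4, 6.81 for Hey2, 2.52 for Gja4 and 2.25 for Efnb2. The other 5 members had contralateral medians of 0.471 CPM per kb or less. In early AVFs the order was Gja4 at 13.5 CPM per kb, Nr2f2 at 5.67 and Ephb4 at 4.30, and the remaining 7 members lay between 1.08 and 2.67. In late AVFs Gja4 stood at 25.3 CPM per kb, Ephb4 at 10.5 and Nr2f2 at 7.66, and Notch4 was lowest at 0.429. The ranges of Ephb4 and Nr2f2 overlapped in every group, while Gja4 lay above both in all mid and late AVFs. At the early time the range of Gja4, 6.08 to 30.3 CPM per kb, overlapped those of both venous genes.

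Other genes of the same pathways were counted from lists chosen with earlier results of these data known. Over all tested genes, 6.45%, 3.31% and 2.85% were called lower and 6.17%, 2.74% and 2.49% higher in early, mid and late AVFs. Of 18 other Notch pathway genes 17 were tested, and 3 were called lower early: Notch3, the receptor of smooth muscle cells (log2 change -2.29, edgeR adjusted p = 1.93e-05), Hes1, a Notch target (-1.32, edgeR adjusted p = 0.00913), and Jag1, a Notch ligand (-1.18, edgeR adjusted p = 0.00242). In mid AVFs 0 of the 17 were called by edgeR, with 4 at an unadjusted p under 0.05 and 1 called by DESeq2, and in late AVFs 1 was called lower, Hes1 (-1.89, edgeR adjusted p = 0.00472). The list's median log2 change was -0.53, -0.39 and -0.16. Notch3 was higher late than early (2.14, edgeR adjusted p = 0.00149). Of 15 other ephrins and Eph receptors 10 were tested and 0 were called by edgeR or DESeq2 against contralateral veins, with 3, 2 and 2 at an unadjusted p under 0.05 and median log2 changes of 0.19, 1.10 and 1.27. Of 10 further arterial genes 8 were tested, with median log2 changes of -0.44, 0.23 and 0.20 early, mid and late. In mid AVFs 0 of them were called by edgeR, with 3 at an unadjusted p under 0.05 and 2 called by DESeq2. Bmx, a kinase of arterial endothelium, was called lower early (-3.02, edgeR adjusted p = 0.000325), as was Jag1, which is also in the Notch list, and Unc5b, a netrin receptor, was called higher late (3.89, edgeR adjusted p = 0.00353). Of 7 further venous genes, 0 were called higher and 2 lower at each time, Emcn being at -2.85, -3.16 and -3.11 and the other being Vwf. Both also served as endothelial markers in naming the single-cell clusters. The list's median was 0.01, -0.36 and -0.47, and its uncalled genes went both ways. In contralateral, early, mid and late vessels, mean Aplnr was 15.5, 50.6, 78.3 and 57.2 CPM and Flt4 7.91, 9.82, 23.5 and 46.0 CPM. Nrp2 was at 67.1, 67.5, 85.0 and 101 CPM, Ackr1 at 51.8, 42.9, 19.8 and 21.9 CPM, and Selp at 34.2, 42.2, 26.6 and 24.7 CPM. Gja1, the connexin 43 gene of smooth muscle and mesenchymal cells, was called higher at each time (1.48, 1.19 and 1.28, edgeR adjusted p = 0.000173, 0.00645 and 0.00409).

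As a description of likeness, the 3 tested genes with the highest Spearman rho to each member over the 25 bulk libraries were taken. For Nr2f2 these were Mical3 (0.937), Crim1 (0.932) and Cald1 (0.93), and for Ephb4 Ppp1r12b (0.917), Chrdl1 (0.913) and Sytl2 (0.912). For Notch1 they were Vars2 (0.898), Prpf18 (0.896) and Fam120b (0.886), and for Dll4 Tnfrsf22 (0.879), Nlrx1 (0.822) and Rad51d (0.80). Gja4 had the endothelial tight junction gene Cldn5 first (0.874), then Il7 (0.862) and St8sia6 (0.842), and Gja5 had Klhdc3 (0.841), Tmem51 (0.833) and Gm5431 (0.818). The highest for Hey2 were Abat (0.868), Fstl3 (0.853) and Aktip (0.852), for Hey1 Tro (0.847), Prc1 (0.824) and Rbl1 (0.814), for Notch4 Slc25a30 (0.811), Polr2h (0.81) and Itpkb (0.801), and for Efnb2 Nmrk1 (0.768), Zcchc7 (0.76) and Lrig3 (0.758). Among the members themselves the highest rho was 0.80, between Ephb4 and Nr2f2. After the group means were removed it was 0.0446. Notch1 and Gja4 had a rho of 0.754 over all libraries and 0.458 within groups. The points share library depth and the number of genes at 0, which differed between the groups.

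In single cells, 6319 contralateral, 4753 early and 5821 late cells were kept, with a median of 2751, 8951 and 15425 UMIs (unique molecular identifiers, the counted molecules). Between 14 and 19 cell barcodes were shared by any pair of libraries. There was 1 library per group, so the values below carry no test, and the 95% intervals cover counting error alone. Levels are summed UMIs of a class of cells scaled to CPM. Clusters were named endothelial-like from markers such as Pecam1 and Cdh5 and held 825 contralateral, 67 early and 83 late cells. Their sub-clusters differed between libraries: the contralateral ones were mostly in sub-clusters led by Gm10800, Gm10801 and hemoglobin genes (0), by Olr1 and Vwf (3), by Ppbp and Clec3b (2) or in the lymphatic-like one (1). Of the 67 early cells, 31 were in sub-cluster 4, with Prnd and Col15a1 among its leading genes, and 13 in sub-cluster 5. Of the 83 late cells, 49 were in the lymphatic-like sub-cluster and 28 in sub-cluster 4. Ratios are therefore given over all endothelial-like cells and outside the lymphatic-like sub-cluster (697, 59 and 34 cells), and for most members in sub-cluster 4 (64, 31 and 28 cells). These sets, the mean over cells and the values without 1 cell were chosen after the data were seen. Neutrophil-like cells, which should lack the endothelial members, gave the background.

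The venous genes were lower over all endothelial-like cells of both AVF libraries, though Nr2f2 was not lower in late lymphatic-like cells. Nr2f2 stood at 612 CPM in contralateral, 163 CPM in early and 474 CPM in late endothelial-like cells, against 9.01, 1.23 and 0.972 CPM in neutrophil-like cells. The ratio to the contralateral library was 0.267 early (95% interval 0.217 to 0.325) and 0.774 late (0.675 to 0.885). Outside the lymphatic-like sub-cluster the ratios were 0.213 (0.167 to 0.267) and 0.263 (0.189 to 0.357), and in sub-cluster 4 they were 0.222 (0.167 to 0.292) and 0.259 (0.183 to 0.359). In the lymphatic-like sub-cluster, which held 49 of the 83 late cells, Nr2f2 was at 813 CPM late against 686 CPM in the contralateral library, a ratio of 1.18 (0.994 to 1.41). In smooth muscle-like cells it measured 577, 99.0 and 69.4 CPM in the order contralateral, early and late, from 35, 209 and 492 cells. Fibroblast-like cells read 281, 54.6 and 58.6 CPM, but different clusters made up this class: 1675 of 1861 contralateral cells were in cluster 3, 289 of 423 early cells in cluster 14 and 1831 of 1991 late cells in cluster 0. Endothelial-like cells held 28.5%, 7.85% and 5.77% of all Nr2f2 UMIs.

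Ephb4 was at 254 CPM in contralateral, 160 CPM in early and 88.6 CPM in late endothelial-like cells, against 0, 0.924 and 0.972 CPM in neutrophil-like cells. The ratios were 0.632 (0.51 to 0.777) early and 0.349 (0.253 to 0.471) late. Outside the lymphatic-like sub-cluster they were 0.638 (0.508 to 0.793) and 0.137 (0.0623 to 0.262), the last from 9 UMIs in 34 cells. In sub-cluster 4 the early ratio was 1.08 (0.746 to 1.58), so within these cells no early difference was detectable, while the late ratio was 0.186 (0.0656 to 0.431) from 6 UMIs. In bulk, by contrast, the late level of Ephb4 lay above the early one. Endothelial-like cells held 73.6% of Ephb4 UMIs in the contralateral library but 29.1% and 6.09% in the early and late ones, where 423 and 1991 fibroblast-like cells at 14.3 and 10.9 CPM contributed.

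The summed level of Efnb2 over all endothelial-like cells did not differ beyond counting error. It measured 222, 217 and 264 CPM, with ratios of 0.98 (0.811 to 1.18) early and 1.19 (0.982 to 1.43) late, and background levels of 0, 2.46 and 3.89 CPM. Outside the lymphatic-like sub-cluster the ratios were 1.15 (0.938 to 1.41) and 1.15 (0.856 to 1.52), and in sub-cluster 4 they were 0.678 (0.457 to 0.998) and 1.12 (0.746 to 1.66). As a mean over cells, Efnb2 was at 205 CPM contralateral, 215 CPM early and 331 CPM late, so that the late ratio was 1.61. Outside the lymphatic-like sub-cluster this mean was 159, 217 and 349 CPM, with ratios of 1.36 early and 2.19 late. The size of the late difference thus depended on the measure. In smooth muscle-like cells Efnb2 was at 17.9, 42.3 and 52.2 CPM, with ratios of 2.36 (1.07 to 6.50) and 2.91 (1.33 to 7.96) that rest on 6 contralateral UMIs in 35 cells. Fibroblast-like cells, from the different clusters named above, measured 9.17, 24.0 and 12.5 CPM. Endothelial-like cells held 80.0%, 18.6% and 8.69% of Efnb2 UMIs. A UMI of both Efnb2 and Ephb4 was found in the same cell in 173 of 825 contralateral (21.0%), 22 of 67 early (32.8%) and 20 of 83 late (24.1%) endothelial-like cells, at median depths of 2205, 9020 and 3443 UMIs. Depth sets such shares, so they are not compared between libraries, and doublets were not removed.

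The Notch ligand Dll4 and the receptor Notch4 were higher in early endothelial-like cells, while Notch1 was lower. Dll4 measured 40.2, 103 and 71.2 CPM in contralateral, early and late endothelial-like cells, with 0 UMIs in the neutrophil-like cells of all 3 libraries, which allows up to 13.5, 0.924 and 2.92 CPM there. Its ratios were 2.57 (1.88 to 3.49) early and 1.77 (1.19 to 2.58) late, outside the lymphatic-like sub-cluster 2.74 (1.97 to 3.80) and 1.72 (0.979 to 2.87), and in sub-cluster 4 2.51 (1.43 to 4.60) and 1.77 (0.869 to 3.61). As a mean over cells, Dll4 was at 33.1, 80.9 and 116 CPM, with ratios of 2.44 early and 3.50 late, so the order of early and late depended on the measure. The contralateral pool thus held Dll4 in endothelial-like cells, whereas 5 of 7 contralateral bulk libraries had 0 counts. Notch4 measured 26.5, 78.6 and 19.3 CPM, with ratios of 2.97 (2.05 to 4.28) early and 0.728 (0.336 to 1.41) late, the latter from 10 UMIs. Those 10 UMIs all lay outside the lymphatic-like sub-cluster, where the ratios were 2.59 (1.78 to 3.73) early and 1.15 (0.531 to 2.23) late. With a limit of 20% mitochondrial counts the late level was 40.4 CPM against 24.2 CPM in the contralateral library, so no late direction is given. In sub-cluster 4 its early ratio was 4.63 (2.01 to 12.4). In bulk, the early log2 change of Notch4 was 0.76 and did not pass the test.

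Notch1 measured 311 CPM in contralateral, 220 CPM in early and 250 CPM in late endothelial-like cells, with ratios of 0.708 (0.59 to 0.846) and 0.804 (0.664 to 0.967). The contralateral pool held a Notch1 UMI in 401 of 825 endothelial-like cells, whereas the median of the contralateral bulk libraries was 0.263 CPM. Outside the lymphatic-like sub-cluster they were 0.682 (0.557 to 0.83) and 0.559 (0.401 to 0.761). In sub-cluster 4 the ratios were 0.617 (0.446 to 0.847) and 0.523 (0.338 to 0.787). Neutrophil-like cells were no background for this gene, at 54.1, 23.4 and 34.0 CPM. Endothelial-like cells held 54.6% of Notch1 UMIs in the contralateral library and 10.4% and 5.90% in the early and late libraries. Monocyte- and macrophage-like cells, at 76.2, 30.2 and 52.3 CPM, held 15.8%, 65.2% and 58.9%. Of the 742 contralateral cells of that class, 655 were in cluster 10, led by F13a1, Mrc1 and Cd209f, while clusters 1 and 2 held 1189 and 815 of the 2101 early and 752 and 867 of the 1700 late cells. In bulk, the 7 monocyte and macrophage markers summed to 555 to 1598 CPM in contralateral veins and 1261 to 5090 CPM in AVFs, with none of them at 0 throughout a group. The part of these cells in the bulk Notch1 values was not tested.

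Hey1 and Hey2 were sparse in endothelial-like cells. Hey1 measured 19.4, 35.5 and 59.7 CPM, with ratios of 1.83 (1.07 to 3.00) early and 3.07 (1.92 to 4.83) late, and outside the lymphatic-like sub-cluster the late ratio was 1.27 (0.441 to 2.99) from 6 UMIs of 1 cell. Hey2 measured 12.4, 27.7 and 15.4 CPM, from 37, 18 and 8 UMIs, with an early ratio of 2.24 (1.20 to 4.03), and outside the lymphatic-like sub-cluster the ratios were 1.95 (1.04 to 3.51) and 1.96 (0.79 to 4.29). Without the 1 early cell with most UMIs of the gene, the early ratio was 1.32 (0.708 to 2.33) for Hey1 and 1.42 (0.653 to 2.84) for Hey2. Most Hey2 in the AVF libraries was in another class: smooth muscle-like cells held 19.6% of Hey2 UMIs in the contralateral library, 74.5% in the early and 78.6% in the late one. Their Hey2 level was 89.6, 48.3 and 47.7 CPM, with ratios of 0.539 (0.367 to 0.816) and 0.532 (0.369 to 0.796). The contralateral level of this class rests on 30 Hey2 UMIs in 35 cells, against 209 early and 492 late cells. The lower bulk level of Hey2 thus stood beside a lower level in smooth muscle-like cells and a lower bulk sum of smooth muscle markers. How much each contributed was not tested.

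The arterial connexins were higher over all endothelial-like cells of the early library. Part of the size rested on single cells, and the mix of sub-clusters differed between the libraries. Gja4 measured 55.9, 197 and 46.2 CPM, with ratios of 3.53 (2.78 to 4.47) early and 0.826 (0.515 to 1.27) late, and 1 early cell held 43.8% of the early UMIs. Without that cell the early ratio was 2.11 (1.58 to 2.80). As a mean over cells in place of summed UMIs, the early level was 126 CPM and the contralateral level 45.6 CPM. Gja5 measured 38.2, 156 and 48.1 CPM, with ratios of 4.08 (3.09 to 5.38) early and 1.26 (0.783 to 1.96) late, and 3.13 (2.31 to 4.22) early without its highest cell. Outside the lymphatic-like sub-cluster the ratios were 5.42 (4.08 to 7.22) and 1.24 (0.617 to 2.27) for Gja4 and 3.52 (2.66 to 4.64) and 1.99 (1.24 to 3.09) for Gja5. The early Gja4 ratio there was 3.06 (2.18 to 4.28) without the same cell. In sub-cluster 4, Gja4 had 5 contralateral UMIs (12.8 CPM) and 68 early ones (171 CPM), of which that 1 cell held 56, or 82.4%. Without it the early level was 33.5 CPM and the ratio 2.61 (0.855 to 9.44). Gja5 had 1 contralateral UMI there, against 18 early ones, of which 1 cell held 17, so no ratio is given. Sub-cluster 5, with Gja5 among its leading genes, made up 40 of 825 contralateral and 13 of 67 early endothelial-like cells. In the contralateral library it held 97 of 114 Gja5 UMIs, at 376 CPM. It held 67 of 167 Gja4 UMIs there, at 260 CPM. The part of this mix in the early connexin ratios was not tested. In neutrophil-like cells Gja4 was at 0, 0.924 and 0 CPM and Gja5 at 0, 0.308 and 0 CPM. Smooth muscle-like cells went the other way for Gja4, with 155, 15.1 and 10.0 CPM and ratios of 0.0969 (0.067 to 0.141) and 0.0646 (0.0464 to 0.0909). These ratios rest on 52 contralateral UMIs in 35 cells. Smooth muscle-like cells held 22.2%, 31.7% and 64.8% of Gja4 UMIs. Gja5 stayed with endothelial-like cells, which held 89.8%, 94.4% and 61.0% of its UMIs.

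**Figure D4:**
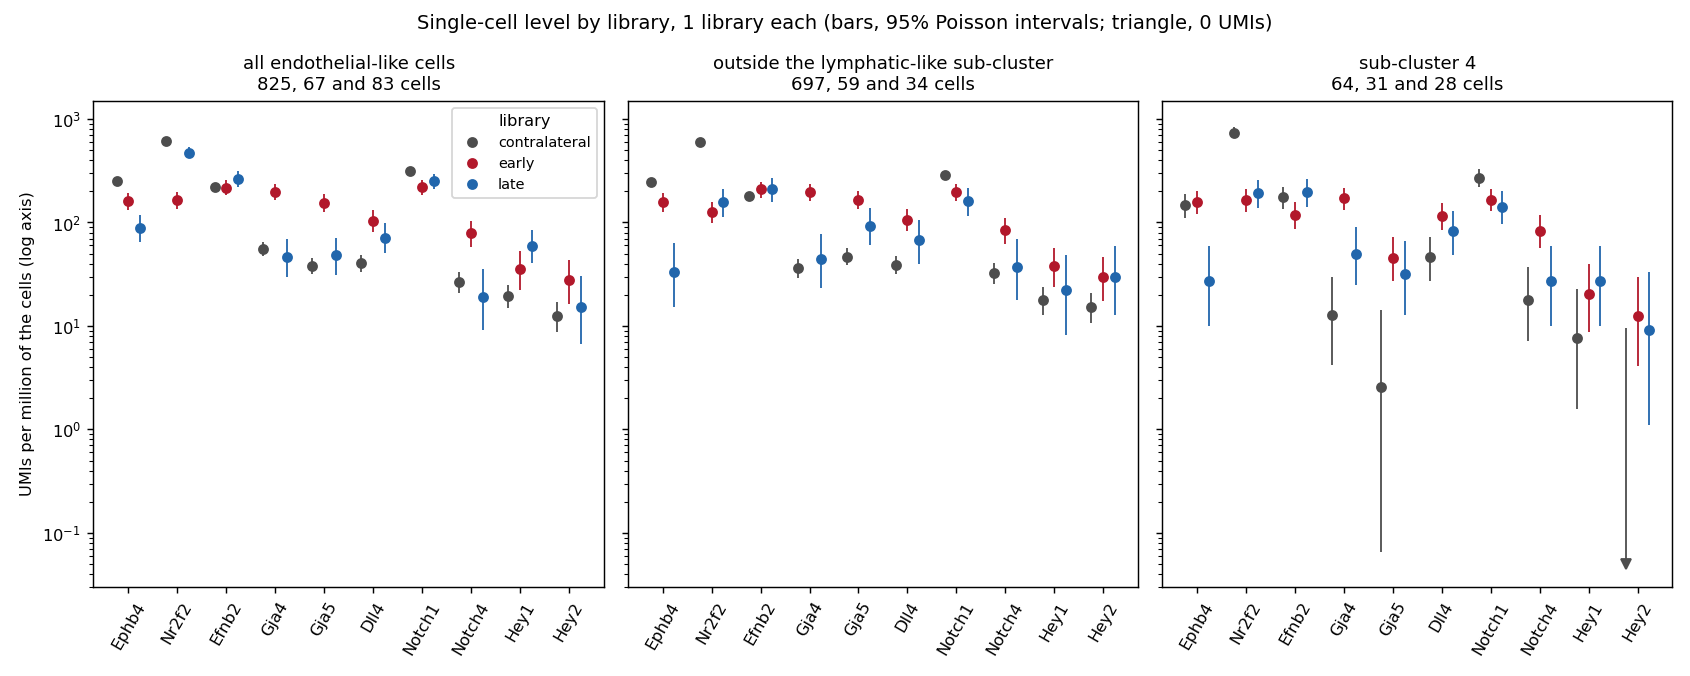
Level in CPM (log axis) of each member in endothelial-like cells of the 3 single-cell libraries, over all such cells, outside the lymphatic-like sub-cluster and in sub-cluster 4, with 95% Poisson intervals and a triangle for 0 UMIs. Nr2f2 is lower in the early library in each panel, and Gja4 and Gja5 are higher, although in sub-cluster 4 their early levels rest on 1 cell with 82.4% and 94.4% of the UMIs, while Efnb2 stays between 119 and 264 CPM.

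Among the sub-clusters of endothelial-like cells, pooled over libraries, arterial and venous members were highest in different sub-clusters. Sub-cluster 5, which is led by Sema3g, Gkn3 and Gja5 and held 40 contralateral, 13 early and 3 late cells, had Efnb2 at 390 CPM, Gja5 at 432 CPM, Gja4 at 266 CPM, Notch4 at 122 CPM, Hey2 at 111 CPM and Dll4 at 102 CPM. Its Nr2f2 level was 55.4 CPM and its Ephb4 level 104 CPM, the lowest of any sub-cluster with at least 20 cells. Sub-cluster 3, led by Olr1 and Vwf and nearly all from the contralateral library (142 of 143 cells), had the highest Nr2f2 and Ephb4 levels, 785 and 370 CPM, with Gja4 at 4.54 CPM and Gja5 at 5.68 CPM. The lymphatic-like sub-cluster 1, led by Ccl21a, Mmrn1 and Reln, combined Nr2f2 at 726 CPM with Efnb2 at 376 CPM and Gja4 at 119 CPM, and had 0 Notch4 and 0 Hey2 UMIs, which allows up to 5.49 CPM in its 128 contralateral, 74.8 CPM in its 8 early and 12.0 CPM in its 49 late cells. Sub-cluster 4 lay between, with Nr2f2 at 392 CPM and Gja4 at 83.5 CPM. The members were kept out of the genes used for clustering, but the cells were grouped on genes that vary with them, so these levels describe the sub-clusters and test nothing. Sub-clusters 0 and 2, with hemoglobin or platelet genes such as Ppbp and Itga2b among their leading genes, had median depths of 1380 and 796 UMIs. A further group of 12 contralateral cells, with the macrophage genes Mrc1 and Csf1r among its leading genes, was left unnamed. These 12 cells are counted in the endothelial-like levels, and leaving them out moved the contralateral levels by 0.093% to 3.54%.

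**Figure D5:**
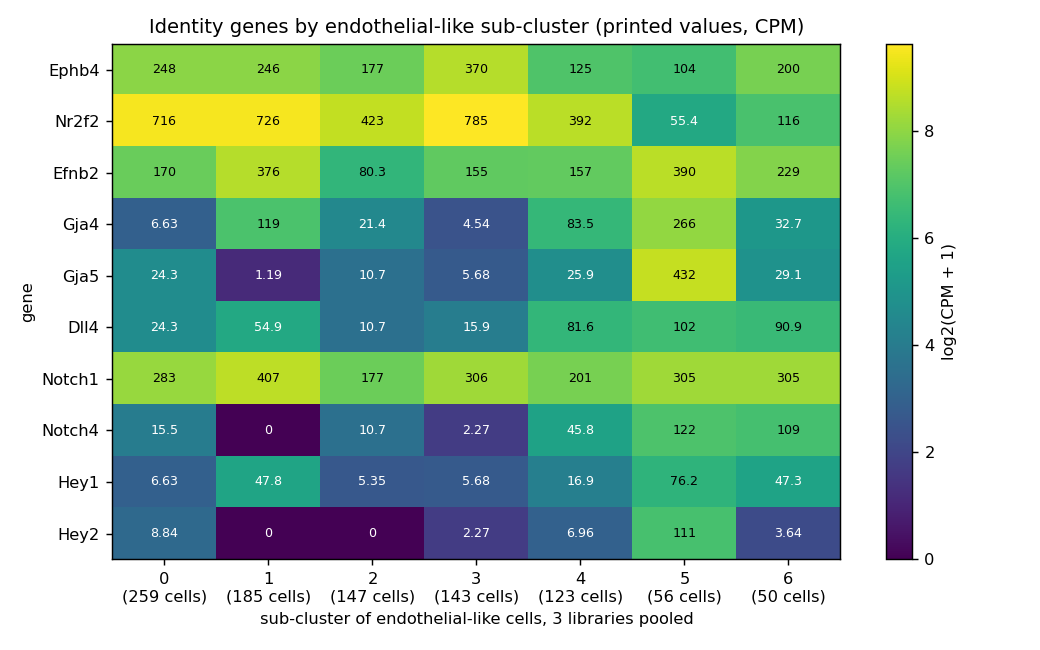
Level of the 10 members (rows, printed as CPM, colour as log2(CPM + 1)) in the 7 sub-clusters of endothelial-like cells with at least 20 cells (columns), 3 libraries pooled. Sub-cluster 5 has the highest Gja5 (432 CPM) and the lowest Nr2f2 (55.4 CPM), and sub-cluster 3 the highest Nr2f2 (785 CPM) and Ephb4 (370 CPM).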

How the data were processed

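Bulk RNA sequencing was done on 25 vessels and single-cell sequencing on 3 pools of 10 vessels. The bulk values are raw read counts per gene as the authors deposited them, and the single-cell values are UMI counts per gene and barcode deposited as Cell Ranger 6.0.2 matrices. The submitters' processing notes name STAR, Cell Ranger, mm10 and GRCm38 without a role. For the bulk table, the counting tool, annotation release and strand setting are not given in these sources. All columns of the bulk table were used (0 unused columns).

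The 12673 genes whose DESeq2-normalized counts averaged 100 or more were tested, a cutoff the study's methods also use. The 4 groups were fitted together with the edgeR 4.0.16 quasi-likelihood F test in R 4.3.3, with TMM scaling and Benjamini-Hochberg adjustment over all tested genes. Calls needed an adjusted p under 0.01 together with a log2 change of 1 or more in either direction. A further fit took library sizes from 12 general endothelial genes. The Efnb2 to Ephb4 ratio was compared by exact two-sided permutation tests, adjusted over 3 comparisons, with calls at an adjusted p under 0.05. The procedure was tested on simulated data. DESeq2 1.42.0, other filters, scalings and thresholds, sex as a term, female mice alone and leaving out each library were tried as alternatives. The members and gene lists were chosen with earlier results of these data known. All members were named. From the pathway lists up to 4 called genes with the largest change per comparison were named, and for each member the 3 genes with the highest Spearman rho.

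Of 26438 barcodes, the 16893 with 200 to 6000 genes and no more than 10% mitochondrial counts were used. They were scaled to 10000 and clustered with leidenalg 0.10.2 on 12 principal components of 2000 variable genes, with 20 neighbours and Leiden resolution 0.5. Markers and members were left out of the variable genes. Scrublet called 0 contralateral, 1 early and 98 late doublets, so it did not work in the first 2 libraries, and none were removed. Levels are the summed UMIs of a class as CPM, with exact 95% intervals. Promoter letters came from RefSeq windows of GRCm38.p6.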

Additional observations from a re-analysis of the deposited data

Results flagged for a closer look

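Of 44 groups of 5 to 8 libraries examined, 9 held a library that stood apart by Dixon's test, which chance does in about 1 in 20 groups. That rate assumes a normal spread, which contralateral groups with many counts of 0 do not have. In contralateral veins these were Ephb4 in vein 28 (187 CPM), Dll4 in vein 632 (42.7 CPM), Hey1 in vein 27 (10.4 CPM), and Gja4 (58.2 CPM) and Gja5 (41.4 CPM) in vein 633. In AVFs they were Hey2 in early vessel 7 (19.9 CPM), Notch1 in mid vessel 15 (16.2 CPM), Dll4 in late vessel 19 (11.1 CPM) and the log2 ratio of Efnb2 to Ephb4 in early vessel 6 (-2.90).

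The fold change of Dll4 differed between male and female mice (edgeR interaction test, adjusted p = 0.00059 early, 0.0101 mid and 0.00747 late). The only male contralateral veins were 632 and 633, at 42.7 and 4.73 CPM, and the 5 female ones were all at 0, so no size is given for the difference.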

How the results depend on the processing

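The numbers of members called were compared with 3, 1 and 1 early, mid and late, and with 2, 1 and 0 relative to endothelial genes. DESeq2 called 3 mid and 2 late, the likelihood ratio test and filterByExpr 2 mid each. An adjusted p under 0.05 gave 3 mid, 2 late, 1 late against early, and 5, 2 and 3 on the endothelial scale. With female mice alone there were 2 mid and 2 late, and 1 early and 1 late on the endothelial scale, where Hey2 turned to 0.0086 early. With sex as a term that scale gave 1 early and 0 mid. Scaling by Pecam1 and Cdh5 gave 1 late and turned Ephb4 to 0.21 and Hey2 to 0.055 late. Against the endothelial scale, TMM gave 1 late and turned Efnb2 to -0.30, -0.27 and -0.20 and Notch4 to -0.38 mid and -0.65 late. The early ratio difference lost its call as a difference in medians (2.13) and in female mice (4.39).

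Without contralateral veins 28, 31, 34 and 632, chosen after seeing the data, Notch4 turned to 0.51 mid and 0.24 late. On the endothelial scale Efnb2 turned to -0.069 mid and -0.021 late, Ephb4 to 0.14 and Hey2 to 0.076 late, with 0 members called mid and 1 late. The ratio difference was 0.92 early and -0.14 late. The cause was not tested.

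Leaving out each library gave 2 to 4 members early (2 without vein 632 or early AVF 1, 2, 3, 5 or 6, and 4 without vein 27 or 633), 1 to 2 mid (2 without vein 27, 34, 35, 632 or 633, early AVF 5 or 10, mid AVF 14 or late AVF 16 or 23), 1 to 3 late (2 without vein 27, 3 without vein 633) and 0 to 0 between AVF times. On the endothelial scale it gave 1 to 5 early (5 without vein 633, 4 without 632, 1 without vein 31 or early AVF 1, 2, 3 or 4). Mid it gave 0 to 4 (4 without vein 633, 0 without vein 28, 34 or 632, any mid AVF, or late AVF 16 or 19), and late 0 to 3 (3 without vein 633, 1 without vein 27, 28 or 632). Ranges were 3.02 to 4.74 for the early ratio difference, 2.29 to 4.01 mid and 1.96 to 3.68 late. The ratio threshold, an adjusted p under 0.05, was passed mid without vein 27 or 35 and late without vein 27. Efnb2 ranged from -0.51 to 0.30 early, -0.47 to 0.33 mid and -0.41 to 0.40 late, Notch4 from -0.60 to 0.39 mid and -0.87 to 0.12 late, and Dll4 from -0.094 to 3.30 late.

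No paired analysis was possible because no vessel number was shared between the bulk groups. In single cells, 47 levels moved, of which sub-cluster 4 gave 19, leaving out lymphatic-like cells 12, the mean per cell 11, leaving out the cell with most UMIs 3 and a 20% mitochondrial limit 2. Counts of 0 in contralateral libraries limit fold changes of Dll4, Hey1 and Gja5.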
